A study of Homo sapiens with 24 samples.

Results

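The genes of the glutamate and GABA receptors were described in sensory neuron cultures derived from human pluripotent stem cells of the line H9WAO9 (genotype WT). Members were taken by gene symbol: the AMPA (GRIA), kainate (GRIK), NMDA (GRIN), delta (GRID) and metabotropic (GRM) glutamate receptor genes, and the GABA-A (GABR) and GABA-B (GABBR) receptor genes, with the first entry of each symbol and a total of 10 or more reads over 24 libraries. This gave 47 members among 29377 entries with that total, of 36468 entries in all. The rule uses symbols and a total count and no difference between groups or batches.

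Each of 6 batches gave 1 library per treatment group. Cultures received vehicle (0.1% bovine serum albumin in PBS), 2 ng/ml TGF-β, or 10 ng/ml IL-4 together with 3 ng/ml IL-13 for 5 days. The last group was labelled IL-6, and its dose and duration were not given in the sources used here. All groups share the cell line and the differentiation, the carrier is given for all but the IL-6 group, and the batches are batches of differentiation of 1 line, not donors. Polyadenylated RNA of the whole culture was sequenced, so that a level is the level of a mixture of cells, and fewer cells of a type cannot be told apart from less RNA per cell.

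Glutamate and GABA receptors are the main receptors of fast excitation and inhibition in the nervous system. AMPA, kainate, NMDA and GABA-A receptors are ion channels assembled from several subunits, and the subunits present set the conductance, kinetics and pharmacology of the channel, while metabotropic glutamate receptors and GABA-B receptors signal through G proteins. Primary sensory neurons carry kainate receptors with the GRIK1 subunit, group II and III metabotropic receptors on their terminals, and GABA-A receptors that act presynaptically on afferents.

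Total counts lay between 33342682 and 39817784 reads per library, and the normalized counts of the members summed to between 17626 and 57473 per library. The 12 pan-neuronal markers, such as TUBB3 and STMN2, were present in all 24 libraries, from 143 reads (RBFOX3) to 85934 reads (STMN2). Of the 12 sensory markers, SCN10A was near 0, with 0 to 25 reads per library. Markers of mesenchymal cells differed widely in level, with COL1A1 between 25627 and 272161 reads, PDGFRA between 560 and 1918 and TWIST1 between 37 and 150. In the correlation of deviations from the group means over 20942 genes, libraries of the same batch had a median r of 0.57 (36 pairs), against -0.16 for libraries of different batches (240 pairs). The vehicle libraries of batches 2 and 4 went against their labels. The vehicle library of batch 2 had a mean r of 0.04 with the other libraries of batch 2 and of 0.37 with those of batch 4, and the vehicle library of batch 4 had 0.15 with its own batch and 0.35 with batch 2. Whether the labels of these vehicle libraries were exchanged was not tested. In batch 4, the library with TGF-β and the one with IL-4+IL-13 were closer to batch 3 than to their own batch. For the comparisons with vehicle, values without these libraries stand beside the differences they moved most.

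Promoter windows (250 bases before to 50 bases after a start site, RefSeq, GRCh38.p14) were found for 34 of the 47 members, 51 windows in all. GRIA2 is the defining member, and GRIK2 and GRM8 had the smallest p-values of all members between the TGF-β and IL-4+IL-13 groups. A window of each of these genes is shown, and other windows of them are not. The first is chr4:157220369-157220668 (plus strand), around a start site 109 bases upstream of the start of the MANE Select transcript. The second is chr6:101393458-101393757 (plus strand) and the third is chr7:127252892-127253191 (minus strand), both at the MANE Select start. Capitals mark the motifs that were searched on both strands, and the GRIK2 window shown held none of them.

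GRIA2: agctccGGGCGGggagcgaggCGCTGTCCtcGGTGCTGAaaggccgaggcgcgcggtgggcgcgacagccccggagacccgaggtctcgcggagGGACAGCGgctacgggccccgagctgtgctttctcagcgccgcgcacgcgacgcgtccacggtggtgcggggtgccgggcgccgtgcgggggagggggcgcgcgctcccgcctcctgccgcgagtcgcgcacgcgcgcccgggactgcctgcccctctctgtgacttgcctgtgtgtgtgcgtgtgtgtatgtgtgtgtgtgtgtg
GRIK2: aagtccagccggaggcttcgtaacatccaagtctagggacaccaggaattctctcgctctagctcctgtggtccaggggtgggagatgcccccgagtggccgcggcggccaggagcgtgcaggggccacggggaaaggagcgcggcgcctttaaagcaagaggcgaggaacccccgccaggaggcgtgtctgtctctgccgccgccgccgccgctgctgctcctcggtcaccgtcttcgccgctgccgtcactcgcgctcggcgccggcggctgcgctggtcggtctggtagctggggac
GRM8: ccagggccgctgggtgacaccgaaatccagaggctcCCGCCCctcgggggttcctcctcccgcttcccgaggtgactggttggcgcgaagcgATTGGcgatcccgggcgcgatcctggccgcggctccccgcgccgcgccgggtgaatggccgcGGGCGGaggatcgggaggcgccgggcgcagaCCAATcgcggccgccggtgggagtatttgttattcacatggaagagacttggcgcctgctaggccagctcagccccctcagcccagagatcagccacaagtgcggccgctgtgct

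Both parts of the RE1 element, the binding sequence of the repressor REST that silences neuronal genes in other cells, were searched as TCAGCACC and GGACAGCG. The GRIA2 window holds them together on the minus strand, 2 bases apart, from 229 bases upstream of the start site, and holds GGACAGCG once more at 156 bases upstream. The paired parts were found in 6 of 35116 windows of all genes (0.0171%) and in 1 window of the members. The first part alone was in 1.67% of all windows and in those of GRIA2 and GRM2, and the second in 1.63% of all windows and, of the members, in that of GRIA2 alone. The GC box (GGGCGG) was in 45.1% of the members' windows and 45.0% of all windows, the CCAAT box (CCAAT) in 41.2% and 34.6%, and the TATA box (TATAAA) in 7.84% and 11.5%. The GRM8 window shown holds 2 GC boxes and 2 CCAAT boxes. GRIA2 and GRIK2 have a CCAAT box in windows not shown. The cAMP response element (TGACGTCA) was in 1.96% of the members' windows and 1.85% of all windows. The STAT6-type motif (TTC and GAA with 4 bases of any kind between them) was in 5.88% and 6.44%. GRM8 has it in a window not shown. The SMAD palindrome GTCTAGAC was in 0 of the 51 members' windows and 0.202% of all windows. These are matches of letters and not measured binding.

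Levels were compared between genes as normalized counts (counts divided by DESeq2 size factors) per kb of the MANE Select transcript. In the vehicle group GRIK5, the GluK5 kainate subunit that needs a partner subunit to form a channel, had a lowest, median and highest level of 736, 761 and 878 per kb. GABRA3, the α3 subunit, had 167, 726 and 1200 per kb. The ranges of both genes overlap, and that of GABRA3 was the wider. At the other end, the α subunit genes GABRA4 and GABRA6 and the group III receptor gene GRM6 had medians under 1 per kb.

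Among the AMPA receptor subunits, GRIA4 had the highest median in the vehicle libraries (434 per kb), followed by GRIA2 (331), GRIA1 (285) and GRIA3 (233). GRIA2 makes AMPA receptors impermeable to calcium when its transcript is edited. Its level was 292 ± 102 (SD, n = 6) per kb in the vehicle group, and its share of the 4 AMPA transcripts was between 19.2% and 27.8% over all 24 libraries. GRIA4 held between 23.3% and 46.4%, GRIA1 between 15.7% and 38.0%, and GRIA3 between 11.1% and 23.8%. GRIA4 and GRIA2 neighbour each other in the order of medians, with overlapping ranges of 144 to 847 and 85.4 to 351 per kb.

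Of the kainate receptor genes, GRIK5 was the highest, and the channel-forming subunits followed with GRIK3 at a median of 219 per kb, GRIK2 at 154 and GRIK1 at 138. GRIK4, like GRIK5 a subunit that does not form a channel on its own, had 60.5 per kb. GRIK5 made up between 48.4% and 75.7% of the kainate transcripts in every library. Its normalized count was between 3018 and 3957 over all 24 libraries, the narrowest range of batch means among the members (0.25 on the log2 scale).

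GRIN1, the obligatory NMDA receptor subunit, had a median of 509 per kb in the vehicle group. Per kb, GRIN2D was the highest GluN2 gene, with a median of 194 per kb against 55.3 for GRIN2C, 54.6 for GRIN2A and 48.5 for GRIN2B, and it held between 35.6% and 64.7% of the GluN2 transcripts. This order depends on the length used, since the MANE Select transcript of GRIN2B is 30.6 kb long. Without the division by length, GRIN2B had a median of 1483 normalized counts and GRIN2D of 1067. GRIN2C varied most, from 72.9 to 1167 normalized counts over the libraries, and its highest value was that of the vehicle library of batch 4. GRIN3A and GRIN3B, subunits that lower calcium permeability, had medians of 68.3 and 59.7 per kb. The delta receptor gene GRID1 had 103 per kb.

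GRM8, a group III metabotropic receptor that inhibits adenylyl cyclase, was the highest metabotropic gene at a median of 304 per kb, followed by GRM7 of the same group at 181. GRM5, a receptor that couples to phospholipase C, had 23.6 per kb. The group II receptors GRM2 and GRM3 had 68.5 and 39.8 per kb. More than 10% of the exon bases of GRM5 (53.8%), GRM3 (19.9%) and GABRG3 (10.1%) overlap another gene, and without a stated strand setting their reads cannot be told apart from those of the other gene. For GRM5 and GRM3 the levels are therefore uncertain.

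In the GABA-A family, GABRA3 held between 44.9% and 70.1% of the α transcripts and GABRA5, the α5 subunit of extrasynaptic receptors, at most 42.0%. Of the remaining subunits, GABRE had a median of 273 per kb, GABRQ 79.8, GABRD 35.9 and GABRP 3.11, and the rho subunits GABRR1, GABRR2 and GABRR3 had 23.6, 8.42 and 3.46.

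GABBR2, the GABA-B subunit that couples to the G protein, had a median of 539 per kb. GABBR1, the subunit that binds GABA, was listed in 7 entries, of which the first held 16 of 6072 reads. Summed over the 7 entries its median was 44.1 per kb in the vehicle group, and no treatment difference is given for GABBR1. GABRQ was listed in 2 entries with 7481 and 6238 reads. Tests of GABRQ are on the first entry, and its level per kb is the sum of both. How reads that match several entries were counted is not stated. The levels of GABBR1 and GABRQ, and the distance of GABBR1 from GABBR2, are therefore uncertain.

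**Figure D1:**
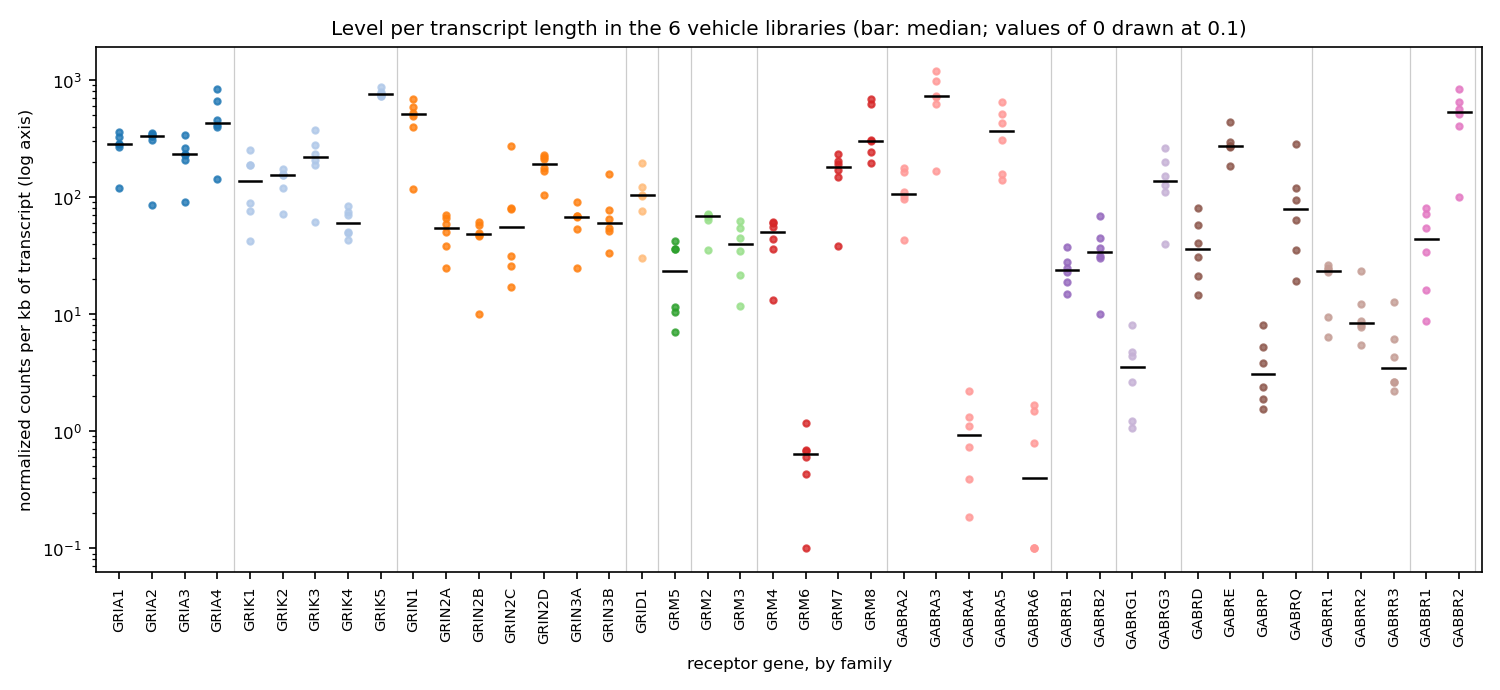
Level of 42 receptor genes in the 6 vehicle libraries, as normalized counts per kb of transcript on a log axis, with genes on the horizontal axis by family, points for libraries and bars for medians. Of the genes drawn, GRIK5 and GABRA3 have the highest medians (761 and 726 per kb).

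**Figure D2:**
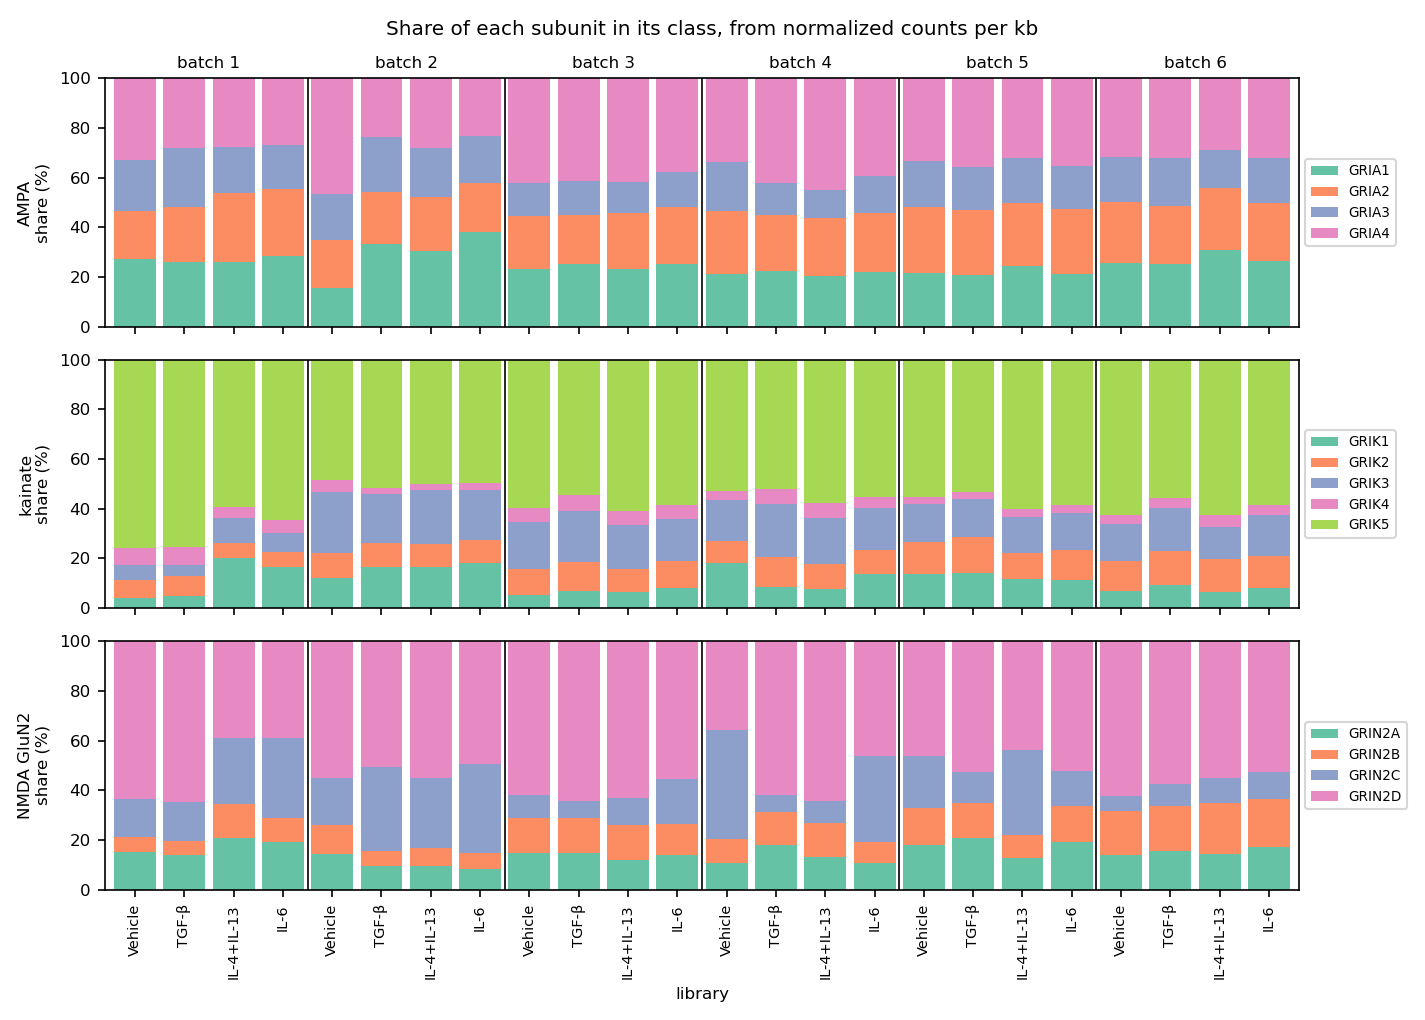
Share of each subunit gene in its class (percent of normalized counts per kb) in all 24 libraries, grouped by batch, for the AMPA, kainate and NMDA GluN2 genes. GRIA2 stays between 19.2% and 27.8% of the AMPA transcripts, while GRIN2C ranges from 6.35% to 43.9% of the GluN2 transcripts.

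Of the receptor genes, 16 lie in 5 clusters with neighbours within 1 Mb of each other. On chromosome 15, GABRA5 (26866719 to 26949208) and GABRG3 (26971181 to 27541984) had medians of 370 and 138 per kb in the vehicle group. On the X chromosome (151953124 to 152658965), GABRE, GABRA3 and GABRQ had 273, 726 and 79.8. On chromosome 4 (46035769 to 47426447) the levels within a cluster were far apart, with 106 per kb for GABRA2 and 23.7 for GABRB1 against 3.51 for GABRG1 and 0.92 for GABRA4.

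The largest differences among libraries followed the batch. A batch difference over the 6 batches was called (adjusted p under 0.05, edgeR) for 40 of 47 members, 85.1%, against 56.8% of all entries tested. The batch means of GABRQ differed by 2.91 on the log2 scale, those of GABBR2 by 2.79 and those of GRID1 by 2.70. The widest range of batch means, 3.86, was that of GABRR3, which had at most 44.7 normalized counts. Batch 1 had the lowest mean of the batches for GABRQ, GABBR2 and GRID1.

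GRIA2 had 479 normalized counts in the vehicle library, 503 with TGF-β, 841 with IL-6 and 1033 with IL-4+IL-13 among the libraries of batch 1. In the 20 libraries of batches 2 to 6 it had between 1145 and 2237. No library of batch 1 reached the lowest of the others. The fitted difference was -1.28 on the log2 scale (SE 0.18, adjusted p = 9.49e-06). The libraries of batch 1 come from a single differentiation. This p-value and the calls for batch 1 below therefore describe that differentiation and do not measure the spread between differentiations.

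The same contrast, batch 1 against batches 2 to 6, was called for 33 of 47 members (70.2%), against 44.4% of all entries. Of these, 30 were lower in batch 1 and 3 higher (22.3% and 22.1% of all entries). The median difference over the members was -1.13 on the log2 scale, against -0.06 over all entries. In 17 members every library of batch 1 was below every other library (36.2%), which held for 6.36% of all entries tested. For members with a mean of 100 or more normalized counts the count was 17 of 35 (48.6%), against 11% of all entries with such a mean.

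All 4 AMPA genes, GRID1, GRM5, GABRB1 and GABRB2 were called lower in batch 1. GABBR2 had between 479 and 955 normalized counts in batch 1 and between 1163 and 5001 in the others (difference -2.12, SE 0.25). GRIN1 had between 415 and 838 against 913 to 3054, also without overlap. Of the kainate genes GRIK2 and GRIK3 were called lower, of the NMDA genes 4 of 7 and of the GABA-A α genes 4 of 6.

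The members called higher in batch 1 were GRM8, GRIN3B and GABRR2. GRIN3B had between 278 and 516 normalized counts in batch 1 and between 93.1 and 252 in the others, with no overlap (difference 1.10, SE 0.16). GRM8 had between 2058 and 3069 in batch 1 and between 586 and 2649 in the others, where the 4 libraries of batch 6 (2428 to 2649) overlap with batch 1. GABRR2 had between 55.5 and 111 against 23.9 to 90.0. GRIK5 was at 3225 to 3459 against 3018 to 3957 (difference -0.08, SE 0.05, adjusted p = 0.17), and its difference passed the test without batch 6 (-0.13, adjusted p = 0.034).

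Markers of cell types moved with the batch as well. All 12 pan-neuronal markers were called lower in batch 1 (median difference -1.49), and their summed level was between 79449 and 131408 in batch 1 and between 159755 and 380435 in the others. The 12 sensory markers had a median difference of -1.02, with 10 called lower. The summed level of the 10 mesenchymal markers was between 201937 and 552191 in batch 1 and between 120488 and 342272 in the others, with 6 called higher and 3 lower. The part of cell composition in the receptor differences was not tested.

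**Figure D3:**
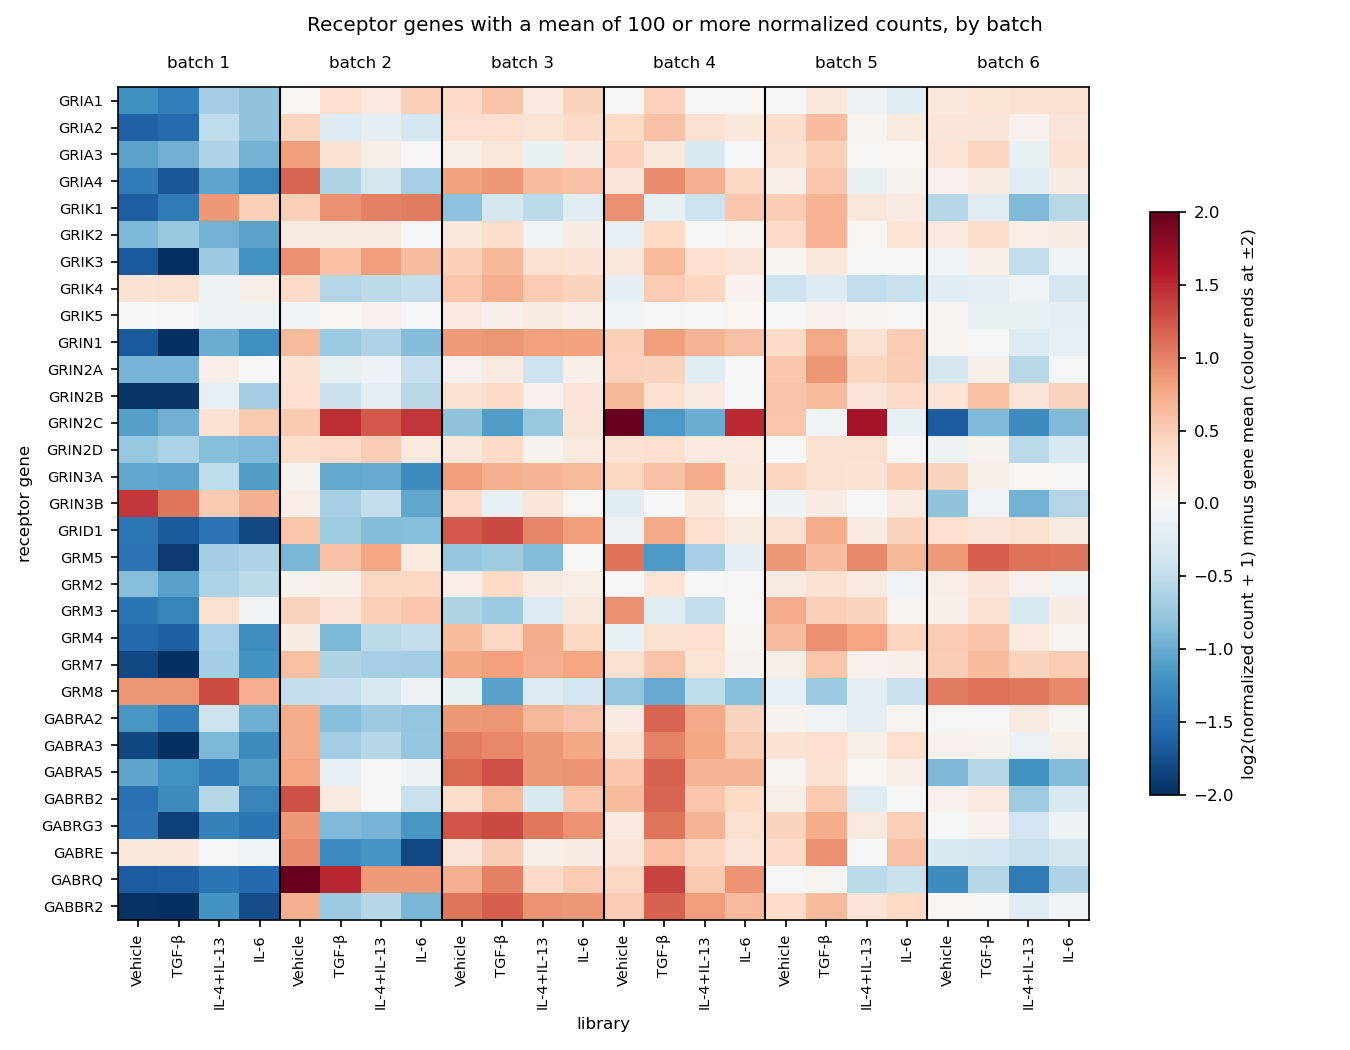
Heat map of 31 receptor genes with a mean of 100 or more normalized counts (rows) in the 24 libraries (columns, by batch), coloured by log2(normalized count + 1) minus the mean of the gene, with colours ending at ±2. Batch 1 is below the gene mean in most rows, with GRM8 and GRIN3B above it in all 4 libraries and GRIK5 close to 0 throughout.

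Within batch 1, with 1 library per treatment, GRIK1 had 155 and 182 normalized counts in the vehicle and TGF-β libraries. It had 894 with IL-4+IL-13 and 677 with IL-6. GRIN2B had 306 and 308 in the former pair and 1064 and 729 in the latter. For GRIK1, batch 2 had the same order (679 and 915 against 976 and 1003). The order was reversed in batch 5 (691 and 789 against 568 and 544). In batches 3, 4 and 6 the pairs overlapped. The pan-neuronal sum of batch 1 was 82653 and 79449 in the vehicle and TGF-β libraries and 131408 and 109357 in the IL-4+IL-13 and IL-6 libraries. In batch 2 it was the vehicle library that stood apart from the 3 treated ones. GABRE had 1390 normalized counts in that vehicle library against 205 to 318 in the treated libraries of batch 2, and GABRG3 had 2185 against 531 to 651.

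TGF-β against vehicle was the first treatment comparison. No member was called at an adjusted p under 0.05 with edgeR (0 of 47), and none with DESeq2, while 0.347% of all entries were called. At an unadjusted p under 0.05 there were 3 members (6.38%), against 7.29% of all entries. Of the 35 members with a mean of 100 or more, 13 were higher and 22 lower, with a median fitted difference of -0.07 and the lowest at -0.46 (GRIN2C). Without the vehicle library of batch 2, 27 were higher and 8 lower (median 0.10), and without those of batches 2 and 4, 30 were higher and 5 lower (median 0.10). The difference of GRIN2C rested on batch 4, where it had 1167 normalized counts with vehicle and 105 with TGF-β, and it was 0.25 without that batch and 0.05 without both vehicle libraries. The 95% interval lay within ±1 on the log2 scale for 32 of the 34 members of that level that had one.

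The members with the smallest p-values in this comparison were GRIK2, GRM8 and GABRR1. GRIK2, which encodes the channel-forming GluK2 subunit, had a lowest, median and highest normalized count of 340, 726 and 828 in the vehicle group and 377, 817 and 1036 in the TGF-β group. The groups overlap, the TGF-β library was the higher in 5 of 6 batches, and the fitted difference was 0.22 (SE 0.08, adjusted p = 0.42). GRM8 had 725, 1125 and 2564 in the vehicle group and 586, 827 and 2649 in the TGF-β group, with TGF-β lower in 4 of 6 batches (difference -0.28, SE 0.11, adjusted p = 0.53). GABRR1, a rho subunit, had at most 96.8 normalized counts, and its difference was -0.73 (SE 0.34, adjusted p = 0.67). GRIA2 had 479, 1857 and 1969 in the vehicle group and 503, 1792 and 2237 in the TGF-β group. Its difference of -0.04 (SE 0.17, adjusted p = 0.99) turned to 0.10 without the vehicle library of batch 2.

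IL-4+IL-13 against vehicle gave 0 of 47 called members with edgeR and with DESeq2, while 0.633% of all entries were called with edgeR. At an unadjusted p under 0.05 there were 2 members (4.26%), against 9.10% of all entries. GRIA3, the GluA3 subunit, had 468, 1198 and 1752 normalized counts in the vehicle group and 639, 892 and 1068 in the IL-4+IL-13 group. The treated library was the lower in 5 of 6 batches, with batch 1 the exception, and the difference was -0.34 (SE 0.13, adjusted p = 0.41), or -0.12 without the vehicle libraries of batches 2 and 4. GABRA5 had 360, 944 and 1665 in the vehicle group and 283, 755 and 1377 in the treated group, also lower in 5 of 6 batches (difference -0.29, SE 0.13, adjusted p = 0.51), and its difference was -0.12 without the vehicle library of batch 2. GRIA2 had 1033, 1537 and 1803 in the treated group, and its difference was -0.03 (SE 0.17, adjusted p = 0.98), or 0.11 without that library. Over the 35 members with a mean of 100 or more 11 were higher and 24 lower, and the lowest difference was -0.59 (GABRE, adjusted p = 0.59). Without the vehicle library of batch 2 the difference of GABRE was -0.08, and 20 members were higher and 15 lower.

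IL-6 against vehicle gave 0 of 47 called members with edgeR and with DESeq2, and 0 of all entries with edgeR (0%). At an unadjusted p under 0.05 there was 1 member (2.13%), against 4.77% of all entries. This was GRIN3A, with 193, 535 and 714 normalized counts in the vehicle group and 166, 432 and 627 in the IL-6 group. It was lower in 5 of 6 batches (difference -0.38, SE 0.15, adjusted p = 0.85), and its largest difference, -1.32, was in batch 2. Without the vehicle library of that batch the fitted difference was -0.19. GRIA2 had 841, 1683 and 1905 in the IL-6 group (difference -0.07, SE 0.17, adjusted p = 0.96, or a difference of 0.07 without the vehicle library of batch 2). Of the 35 members with a mean of 100 or more, 28 were lower and 7 higher, with a median of -0.15, against -0.0033 for all entries with such a mean. Without the vehicle library of batch 2, 18 were lower and 17 higher, with a median of -0.01. These comparisons share the vehicle libraries.

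TGF-β against IL-4+IL-13, which uses no vehicle value for the difference itself, gave 1 called member of 47 (2.13%), while 2.98% of all entries were called. GRIK2 was higher in the TGF-β group, with 377, 817 and 1036 normalized counts against 329, 644 and 723. The groups overlap through batch 1, where both libraries were low (377 and 329). They also overlap without it, through batch 2 (712 with TGF-β and 723 with IL-4+IL-13). Within batches the TGF-β library was the higher in 5 of 6, by 0.19 in batch 1, 0.42 in batch 3, 0.39 in batch 4, 0.67 in batch 5 and 0.23 in batch 6, and was lower by 0.02 in batch 2. The fitted difference was 0.31 (SE 0.08, adjusted p = 0.035). GRIK2 lies on chromosome 6 (101393708 to 102070083).

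This call was lost when 1 batch was left out, for each batch except batch 2, with adjusted p-values of 0.069 (without batch 1) to 0.25 (without batch 5). It was also lost in a fit of those groups alone (adjusted p = 0.13) and in a fit without batch (adjusted p = 1). The difference itself stayed between 0.25 and 0.37 in the fits that left out 1 batch. It was kept with DESeq2 (adjusted p = 0.0033) and without the vehicle libraries of batches 2 and 4 (adjusted p = 0.011).

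At an unadjusted p under 0.05 there were 6 members in this comparison (12.8%), against 12.2% of all entries. GRM8 had 586, 827 and 2649 normalized counts in the TGF-β group and 882, 1062 and 3069 in the IL-4+IL-13 group. TGF-β was lower in 5 of 6 batches, with a difference of -0.40 (SE 0.11, adjusted p = 0.066), and DESeq2 called it (adjusted p = 0.028). GABRQ, the θ subunit, had 75.8, 365 and 680 in the TGF-β group and 86.6, 238 and 429 in the IL-4+IL-13 group. It was higher with TGF-β in 5 of 6 batches, all but batch 1, with a difference of 0.57 (SE 0.19, adjusted p = 0.14). GABRA5 had 324, 802 and 1837 against 283, 755 and 1377 (difference 0.32, SE 0.13, adjusted p = 0.28).

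GRIN2D (difference 0.18, SE 0.08, adjusted p = 0.34) and GRIA3 (difference 0.28, SE 0.13, adjusted p = 0.37) were also higher with TGF-β in 5 of 6 batches without passing the test. Without the vehicle library of batch 2, GRIK2, GRM8, GABRQ and GABRA5 were called in this comparison, with adjusted p-values of 0.024, 0.034, 0.017 and 0.045. The share of all entries called in that fit is not given, so this count is not a result about the members as a set. Over all 4 groups together no member had a called treatment difference with edgeR, against 1.81% of all entries, and 4 members had an unadjusted p under 0.05 (8.51%, against 9.62% of all entries). GRIK2 was called over the 4 groups without batch 2 (adjusted p = 0.044).

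**Figure D4:**
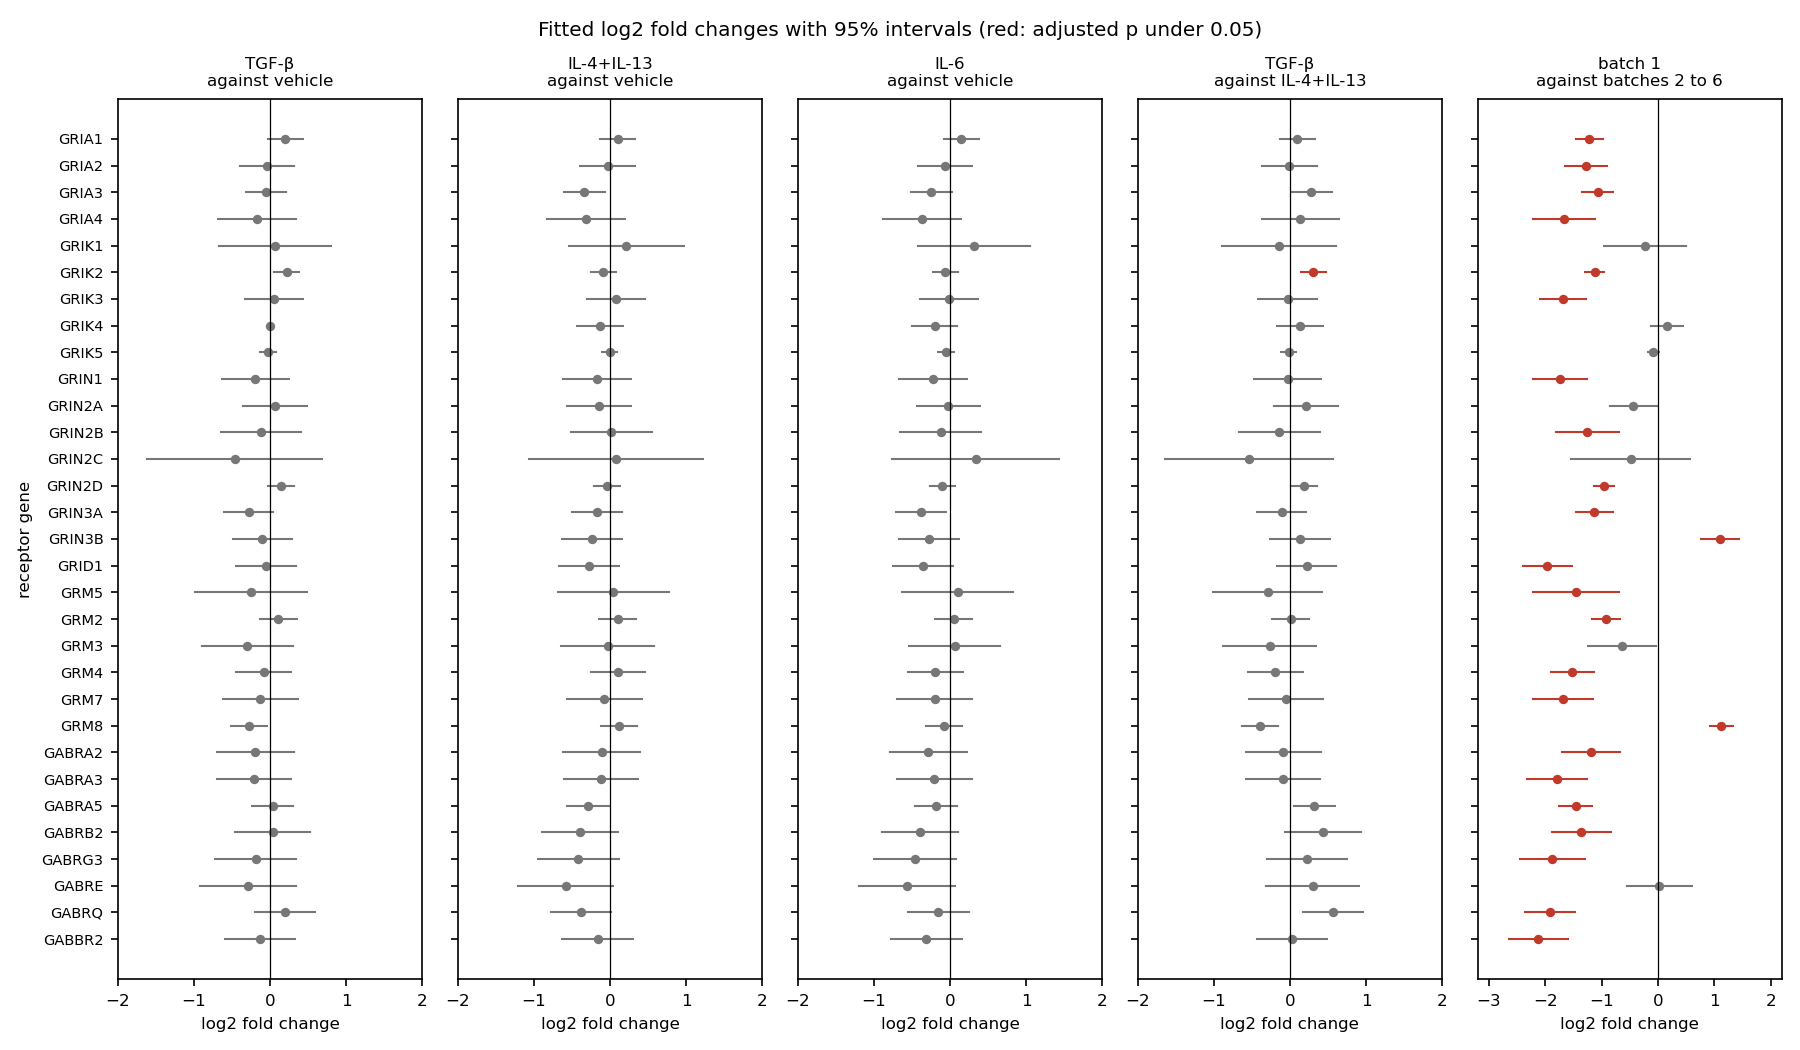
Fitted log2 fold changes of 31 receptor genes with a mean of 100 or more normalized counts in the 4 treatment comparisons and in batch 1 against batches 2 to 6, with 95% intervals and with called genes in red (GRIK4 has no interval in TGF-β against vehicle). GRIK2 in TGF-β against IL-4+IL-13 is the 1 called gene of the treatment panels, and the axis of the batch panel is wider.

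**Figure D5:**
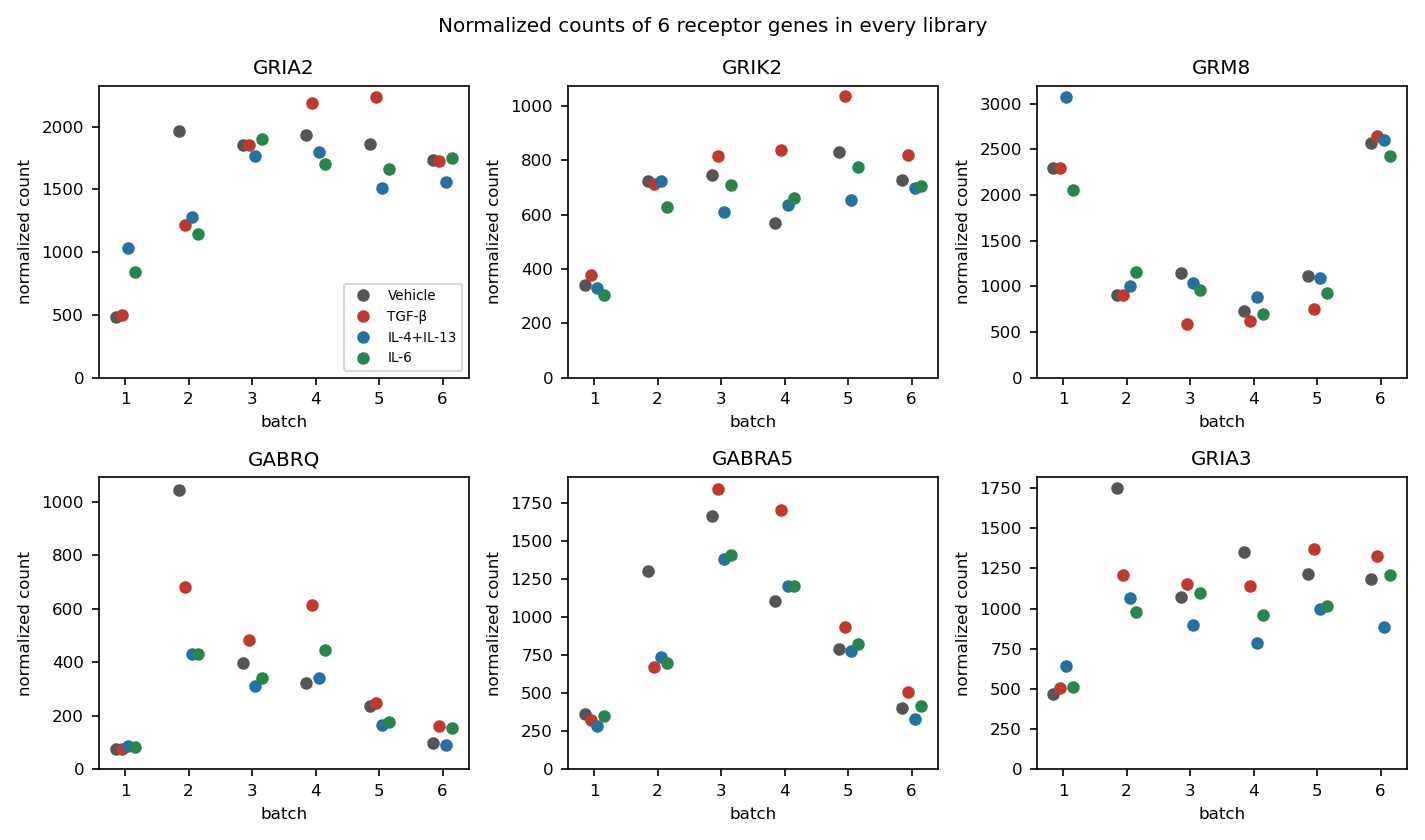
Normalized counts of GRIA2, GRIK2, GRM8, GABRQ, GABRA5 and GRIA3 in every library (vertical axes from 0), by batch on the horizontal axis and with colours for treatment groups. GRIK2 is higher with TGF-β than in the IL-4+IL-13 library in 5 of 6 batches, and the vehicle library of batch 2 lies above the treated libraries of its batch for GRIA2, GABRQ, GABRA5 and GRIA3.

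The direction of small differences went together within a batch. Among the 35 members with a mean of 100 or more, TGF-β was higher than IL-4+IL-13 in 28, 28, 30 and 29 members in batches 3, 4, 5 and 6, with median differences of 0.25, 0.25, 0.25 and 0.24 on the log2 scale. In batches 1 and 2 it was higher in 7 and 9 members, with medians of -0.69 and -0.09. The median over all entries with a mean of 100 or more stayed between -0.03 and 0.02 in every batch. The pan-neuronal markers went the same way, with 12 of 12 higher with TGF-β in each of batches 3 to 6, 0 of 12 in batch 1 and 1 of 12 in batch 2.

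Against vehicle, TGF-β was higher in 26, 26, 27 and 25 of the 35 members in batches 3 to 6, and in 12 and 9 in batches 1 and 2. IL-4+IL-13 was higher than vehicle in 27, 10, 6, 22, 10 and 7 members in batches 1 to 6, and IL-6 in 24, 9, 10, 19, 13 and 18. In batch 2, where the vehicle library stood apart, the median difference from vehicle was -0.86 for IL-6, -0.77 for TGF-β and -0.67 for IL-4+IL-13. Members of 1 library share its composition, so these counts are given without a test.

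Of 71 other genes of these pathways, 2 were called in TGF-β against IL-4+IL-13 (2.82%), close to the 2.98% of all entries. Of 17 auxiliary subunit genes of AMPA and kainate receptors, NETO1 was called (difference 0.53, SE 0.12, adjusted p = 0.017, higher with TGF-β in 6 of 6 batches), and the call was lost without batch 1, 3, 5 or 6 (adjusted p 0.063 to 0.13). NETO1 encodes a protein that binds kainate receptors and slows their decay. Of the pair of chloride transporter genes that set the chloride gradient for GABA-A receptors, SLC12A2, the transporter that brings chloride into sensory neurons, was lower with TGF-β (difference -0.47, SE 0.09, adjusted p = 0.0047, lower in 6 of 6 batches), a call lost without batch 3 (adjusted p = 0.054). Both calls were lost in a fit without batch (adjusted p = 1). In the other treatment comparisons no gene of these lists was called. The 18 excitatory scaffold genes, 12 inhibitory scaffold and GABA receptor partners, 11 genes of glutamate supply and uptake, 8 of GABA supply and uptake and 3 of the editing of glutamate receptor transcripts gave no call in any of the 4 treatment comparisons.

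In batch 1 against the other batches, 43 of the 71 genes were called lower (60.6%) and 11 higher (15.5%), against 22.3% and 22.1% of all entries. By list, 13 of the 17 auxiliary subunit genes were called lower and 1 higher (median -0.69). Of the 18 excitatory scaffold genes 10 were lower and 4 higher, and of the 12 inhibitory partners 9 were lower and 1 higher. Of the 11 genes of glutamate supply and uptake 6 were lower and 3 higher, and of the 8 for GABA 3 were lower and 1 higher.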

How the data were processed

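RNA-seq of 24 libraries (4 treatment groups in 6 batches) was analysed. The authors deposited raw counts of reads for each gene entry, neither normalized nor pooled. Per the labels, reads were checked with FastQC and FastQA, trimmed with Trimmomatic v0.30 and aligned to GRCh38.p14 by the sequencing provider. The aligner, the counter and the strandedness are not given in the sources used here.

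Entries with a total count of 10 or more (29377) entered 1 edgeR 4.0.16 fit of all 24 libraries (R 4.3.3, TMM, robust quasi-likelihood F test, ~batch + treatment), with Benjamini-Hochberg adjustment over all entries and a threshold of 0.05. The same model was also fitted with DESeq2 1.42.0 (Wald test). An adjusted p is edgeR's unless DESeq2 is named. Standard errors and 95% intervals come from F and the fitted log2 fold change, and there is none where F is not above 0. Levels are counts divided by DESeq2 size factors, and per-length levels divide these by the MANE Select length (GENCODE v44). Entries sharing a symbol were kept apart, except for the per-length level of GABBR1 and GABRQ, which sums them. All 47 members had RefSeq coordinates and a MANE Select length. The script was tested on simulated data.

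The labels give each batch 1 library per group, so the batch number pairs the samples, and same-batch libraries deviated together (median r 0.57, against -0.16 between batches), with 4 libraries closer to another batch. Batches are not donors, and p-values measure the spread between these libraries.

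Members and gene lists were chosen with earlier results of these data known. Named members are GRIA2, the highest member of each family and those with a mean of 100 or more in the vehicle group, called members, up to 5 members per comparison with the smallest p under 0.05, and the 5 with the largest range of batch means. GRIA3 in TGF-β against IL-4+IL-13 was the sixth by p. Of the members, 5 are counted in these numbers but not reported here by name. The alternatives tried, some added after seeing the data, are given in the closing section.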

Additional observations from a re-analysis of the deposited data

Results flagged for a closer look

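Among the named members, 80 sets of 6 libraries (1 member in 1 treatment group) were searched for a single library far from the rest, by Dixon's test. The test flagged 14. Its rate by chance of about 1 in 20 holds for independent sets and does not apply here. These sets share libraries, and some members were named for their wide range of batch means. No share over all entries is given. In 13 of the 14 flagged sets the library was that of batch 1 and lay below the others.

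In the vehicle group of batch 1, GRIA2 had 479 normalized counts against 1730 to 1970 in the other batches, GRIA3 468 against 1070 to 1750, GRIN1 517 against 1730 to 3000, GRM2 118 against 213 to 243, GABRA3 612 against 2310 to 4400 and GABBR2 554 against 2250 to 4620. In the TGF-β group of batch 1, GRIA3 had 503 against 1140 to 1370, GRIK2 377 against 712 to 1040, GRIN2D 638 against 1040 to 1290 and GRM2 100 against 229 to 283. In the IL-4+IL-13 group, GRIK2 had 329 against 610 to 723, and in the IL-6 group GRIK2 had 303 against 629 to 773 and GRIA3 513 against 960 to 1210. The remaining one was GABRR1 in the IL-4+IL-13 library of batch 5, with 24.8 against 44.1 to 57.1.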

How the results depend on the processing

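In TGF-β against IL-4+IL-13, 1 member was called. The number was 2 with DESeq2, 0 without the replicate block (batch), 0 with only the 2 groups compared, 0 to 3 when 1 batch was left out, 4 without the vehicle library of batch 2 and 4 without the vehicle libraries of batches 2 and 4. The last alternative, and the sum of the entries of GABBR1 and GABRQ, were chosen after seeing the data. The share of all entries called in these alternatives is not given, so the counts are not a result about the members as a set. Over the 4 groups the number of members was 0, and 1 without batch 2 (0 to 1 over the batches left out) or without both vehicle libraries. The remaining counts of called members stayed at 0 or within 1.5 times in the alternatives run. The fold change of GRIA2, near 0 in all treatment comparisons, changed sign. Leaving out 1 batch, it ran from -0.10 to 0.09 in TGF-β against vehicle (0.09 without batch 2), from -0.25 to 0.10 in IL-4+IL-13 against vehicle (0.10 without batch 2, 0.02 without batch 5), from -0.22 to 0.084 in IL-6 against vehicle (without batch 2) and from -0.12 to 0.20 in TGF-β against IL-4+IL-13 (0.20 without batch 1). Without the vehicle library of batch 2, it was 0.07 for IL-6, 0.10 for TGF-β and 0.11 for IL-4+IL-13 against vehicle, and without both vehicle libraries 0.11, 0.15 and 0.15 in the same order. Between TGF-β and IL-4+IL-13 it was 0.12 without the replicate block and 0.0022 with only the 2 groups compared. The difference of GRIN2C in TGF-β against vehicle ran from -0.84 to 0.25 over the batches left out (0.25 without batch 4) and was 0.054 without both vehicle libraries, and that of GRIK5 in batch 1 ran from -0.13 to 0.0074 (0.0074 without batch 3). GRIK2, GRM8, GABRQ, GABRA5, NETO1 and SLC12A2 between TGF-β and IL-4+IL-13, and GRIK5 in batch 1 without batch 6, changed side of the threshold. The other differences (25 were followed in all, 10 of them chosen after seeing the data) kept both, and the levels followed moved by less than 1 SD. DESeq2 was not run for the tests over 4 groups and over 6 batches. Of the 47 members, 41 had 1 count or more in every library. The cause of these changes was not tested. The 95% interval of GRIA2 in IL-6 against vehicle ran from -0.43 to 0.29, so differences within it are not excluded for this gene with 6 libraries per group.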
